A study of Mus musculus with 17 samples.

Results

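The cells described here were germinal centre (GC) B cells with almost no transcripts of the division programme, taken 48 h after anti-DEC-OVA treatment and compared with the same kind of cell from untreated mice. A cell was called non-cycling when Mki67, Top2a, Cenpf, Ccnb1, Cdc20, Plk1, Rrm2 and Mcm5, summed, gave at most 1 UMI per 10000 UMIs of that cell. UMIs are unique molecular identifiers, each standing for 1 captured RNA molecule. The cells were therefore selected on measured values, and the levels of these 8 genes and the share of cells that met the rule are given as descriptions only. Of 69340 cell barcodes in the series, 1148 met the rule at 48 h, 785 from 6 untreated and 363 from 9 treated mice, against 8829 other cells of the same mice.

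In a GC, B cells mutate their immunoglobulin genes and divide in the dark zone (DZ), then move to the light zone (LZ), where those that take up antigen and present it to T follicular helper cells are selected for further rounds of division. Anti-DEC-OVA is an antibody to the endocytic receptor DEC-205 (Ly75) fused to ovalbumin (OVA), which delivers OVA peptides to DEC-205-bearing B cells so that they receive strong T cell help and divide several times without returning to the LZ. A non-cycling B cell in such a GC may be a resting LZ cell, a cell pausing after mitosis, or a cell leaving the GC as a memory or plasma cell precursor.

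All mice were on a C57BL/6J background. CD45.1 recipients had been primed with OVA in alum and received B1-8hi B cells, which are specific for the hapten NP, before footpad immunization with NP-OVA. A minority of the transferred cells carried DEC-205 and the Vav-tTA and tetO-H2B-mCherry alleles, and the rest were Ly75-/-. The study describes the profiled cells of this time course as DEC-205+ GC B cells. Treated mice (Day9DEC in the list of mice) had been given anti-DEC-OVA at 7 dpi, and untreated mice (Day9) had not. GC B cells (B220+ TCRb- CD38- Fas+) of each mouse were marked with hashtag antibodies to CD45 and MHC-I, pooled and sequenced with 10X 5′ chemistry in 2 pools, of which pool 1 held 4 untreated and 6 treated mice of the 48 h groups and pool 2 held 2 and 3. The same pools held 9 mice taken at 0 h, 8 untreated and 7 treated mice taken at 72 h. The pools are separate experiments and libraries that shared 94 cell barcodes, so pool was a covariate of each fit across genes. Between 118 and 155 non-cycling cells were kept per untreated mouse and between 29 and 55 per treated mouse, so that sums over the treated mice rested on fewer cells.

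The labelled identity held for the cells as a whole. Summed markers of GC B cells, in CPM (UMI counts scaled to a common library total), ran from 7958 to 9997 in the non-cycling cells of untreated mice (median 9430) and from 6795 to 10010 in those of treated mice (median 9254). Markers of naive or memory B cells had medians of 799 and 1004 CPM and ranges of 566 to 937 and 585 to 1338 CPM. The largest member of this sum, Fcer2a, had medians of 489 and 410 CPM. Over the 6 members that could be tested for treatment, the median log2 fold change was 0.75, with 5 above 0 and 1 below. Plasma cell markers ran from 769 to 4839 CPM (median 1138) in untreated and from 852 to 10700 CPM (median 1950) in treated mice. The 6 measured T cell markers ran from 35.0 to 85.5 CPM (median 51.8) and from 0 to 204 CPM (median 73.6). The 8 myeloid markers ran from 9.08 to 180 CPM (median 101) and from 4.90 to 829.1 CPM (median 408), with Itgam at 0 in untreated and S100a8 and S100a9 at 0 in treated mice. Markers of stromal cells and of red blood cells were low in both groups, with medians of 2.14 and 0 CPM for the former and 6.24 and 0 CPM for the latter, and dissociation stress genes had medians of 342 and 322 CPM. Markers of other cell types were thus detected in this class, and more of the myeloid signal lay in treated mice. These sums do not give a number of cells, and cells were not assigned a type. A UMI of the T cell or myeloid lists was found in 66 of the 785 untreated and 59 of the 363 treated cells.

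The non-cycling class was smaller after treatment. It made up between 17% and 25% of the kept cells of the untreated mice (median 20.6%, mean 20.25% ± 2.98, SD, n = 6) and between 4.76% and 7.79% of those of the treated mice (median 5.69%, mean 6.12% ± 1.21, SD, n = 9), and the groups did not overlap. At 0 h the mean was 17.2% ± 4.77 (SD, n = 9), and at 72 h it was 18.7% ± 4.18 (SD, n = 8) without and 11.6% ± 3.31 (SD, n = 7) with treatment. Other cells of treated mice were far deeper, with medians per mouse between 10630 and 15250 UMIs against 5805 to 8707 UMIs in untreated mice, which can set such a share. When each cell was thinned to 2871 UMIs and 813 shallower cells of the 48 h mice were left out, the means were 23.7% ± 7.58 (SD, n = 6) and 7.94% ± 3.08 (SD, n = 9). Of the 785 untreated cells, 777 had no UMI of the 8 genes, 8 lay inside the limit with a UMI (up to 0.986 per 10000 UMIs) and 228 cells lay just outside, between 1.005 and 2. Of the 363 treated cells, 350 had none, 13 lay inside with a UMI (up to 0.992) and 142 cells lay just outside, from 1.01.

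**Figure D1:**
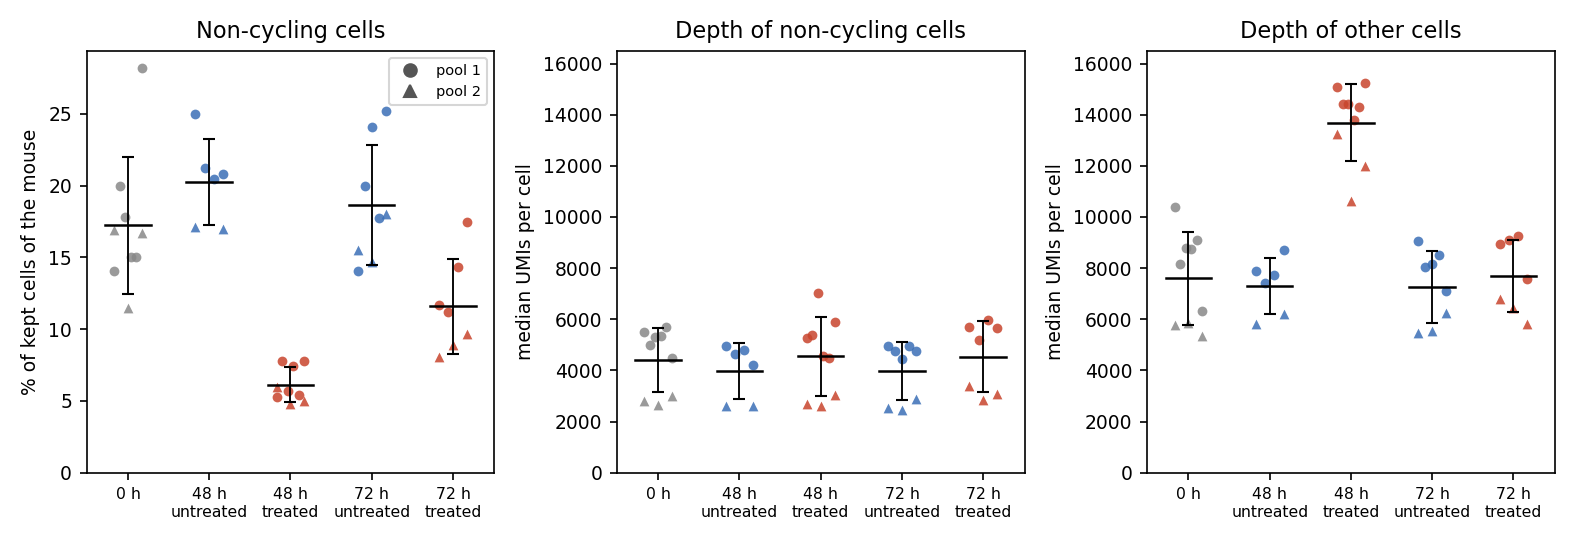
Share of non-cycling cells (left, % of the kept cells of a mouse) and median UMIs per non-cycling cell (middle) and per other cell (right), by hours after treatment. Each point is a mouse, circles are pool 1 and triangles pool 2, and lines and bars are the mean and SD. The treated mice at 48 h lie lowest in the share, between 4.76% and 7.79%, and their other cells lie highest in depth, while the depth of non-cycling cells overlaps in all groups.

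Within the class the depth of treated and untreated cells overlapped. The median UMIs of a mouse's non-cycling cells ran from 2608 to 4968 (median 4432) in untreated and from 2594 to 7037 (median 4574) in treated mice, with the lower values in pool 2. The difference was 0.17 on the log2 scale, or 1.12-fold, and did not pass a two-sided exact permutation test within pools (p = 0.0838). With the mean in place of the median it was 0.22 and passed (exact permutation p = 0.00476).

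Few genes were called as changed in the non-cycling cells at 48 h, and the largest fold changes among them were rises, led by Plac8, S100a10 and Pml. UMIs were summed over the non-cycling cells of each mouse, so that more cells with a transcript and more transcripts per cell cannot be told apart in a sum. Of 6597 genes tested, 34 (0.515%) rose and 8 (0.121%) fell, 42 (0.637%) in either direction (edgeR quasi-likelihood test with pool as covariate, Benjamini-Hochberg adjusted p under 0.05). An unadjusted p under 0.05 by the same edgeR test was found for 715 genes. Over all genes tested the fold change had a median of 0.00 (log2). Every treated mouse lay above every untreated mouse for 3 genes (0.0455%) and below every untreated mouse for 1 gene (0.0152%).

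Plac8, a small cysteine-rich protein of lymphoid and myeloid cells, rose most. Its level ran from 4.75 to 61.2 CPM (median 16.8) in untreated and from 0 to 462 CPM (median 180) in treated mice, so that the groups overlapped, with 6 of 9 treated mice above the highest untreated mouse and 1 below the lowest. The fitted difference was 3.16 ± 0.61 on the log2 scale (SE, edgeR adjusted p = 0.0031), or 8.96-fold. S100a10, the annexin A2 partner, ran from 0 to 25.2 CPM (median 15.85) and from 0 to 343 CPM (median 58.0). It was higher by 2.99 ± 0.56 (log2, SE, edgeR adjusted p = 0.0031), again with 6 treated mice above all untreated ones. Pml, the scaffold of nuclear bodies, ran from 0 to 12.6 CPM (median 6.01) and from 6.85 to 97.9 CPM (median 49.9), a difference of 2.83 ± 0.54 (log2, SE, edgeR adjusted p = 0.0031). At 0 h the medians of Plac8, S100a10 and Pml were 107, 24.1 and 14.6 CPM. In untreated mice at 72 h they were 45.3, 46.6 and 13.8 CPM. For each of these genes the untreated mice at 48 h thus had the lowest median among the groups without treatment. How much of each difference came with that was not tested.

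Zeb2 encodes a transcription factor of memory and age-associated B cells and of myeloid cells. It ran from 9.5 to 77.8 CPM (median 60.2) in untreated and from 80.6 to 376 CPM (median 158) in treated mice, with no overlap, and rose by 1.80 ± 0.36 (log2, SE, edgeR adjusted p = 0.0038). Cfp, properdin of the complement system, also separated the groups, at 11.9 to 43.2 CPM (median 21.9) and 48.6 to 122 CPM (median 75.3), and rose by 1.75 ± 0.39 (log2, SE, edgeR adjusted p = 0.010). Both Zeb2 and Cfp were thus higher in every treated mouse, and their calls were lost in 9 and 10 of 33 alternative settings.

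Lyz2 (lysozyme, a defining gene of macrophages and neutrophils) and Lgals3 (galectin-3) were closer to the threshold. Lyz2 ran from 0 to 138 CPM (median 64.35) in untreated and from 0 to 774 CPM (median 406) in treated mice and rose by 2.20 ± 0.57 (log2, SE, edgeR adjusted p = 0.049). Lgals3 ran from 5.74 to 25.2 CPM (median 14.2) and from 18.3 to 165 CPM (median 41.1) and rose by 1.83 ± 0.47 (log2, SE, edgeR adjusted p = 0.046). Without treated replicate 7, the adjusted p was 0.081 for Lyz2 and 0.25 for Lgals3, where Lyz2 was 2.20 and Lgals3 1.36 higher on the log2 scale, and the number of genes called was 26. The call was lost in 20 of 29 alternative settings for Lyz2 and in 14 of 26 for Lgals3, which was 0.95 higher in pool 1 alone and 3.64 higher in pool 2 alone.

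Further rises were found among genes of the lists and of the comparison between cell classes below. Capg, an actin-capping protein, ran from 42.8 to 119 CPM (median 89.8) and from 82.2 to 433 CPM (median 221) and rose by 1.44 ± 0.26 (log2, SE, edgeR adjusted p = 0.0025). Rb1, the retinoblastoma protein that holds E2F factors inactive, ran from 11.9 to 27.0 CPM (median 18.9) and from 13.7 to 87.7 CPM (median 58.5) and rose by 1.51 ± 0.29 (edgeR adjusted p = 0.0031). Ccr6, a chemokine receptor of memory precursors, ran from 7.66 to 39.6 CPM (median 23.2) and from 18.3 to 158.5 CPM (median 52.7) and rose by 1.47 ± 0.37 (edgeR adjusted p = 0.036). Sub1, a transcriptional coactivator, ran from 16.6 to 270.5 CPM (median 60.9) and from 16.1 to 556.5 CPM (median 252) and rose by 1.62 ± 0.42 (edgeR adjusted p = 0.049). The calls of Ccr6 and Sub1 were lost in 15 of 31 and 22 of 33 alternative settings. Chosen after their values were seen, Ly6a (1.69 higher, edgeR adjusted p = 0.0025), Ly6d (1.24 higher, 0.0048), Casp4 (1.69 higher, 0.0048), Arid5a (1.83 higher, 0.011) and Gimap4 (1.01 higher, 0.0038) were among the other rises, all on the log2 scale, while the smallest were of the ribosomal genes Rplp0 and Rps12, at 0.34 each.

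**Figure D2:**
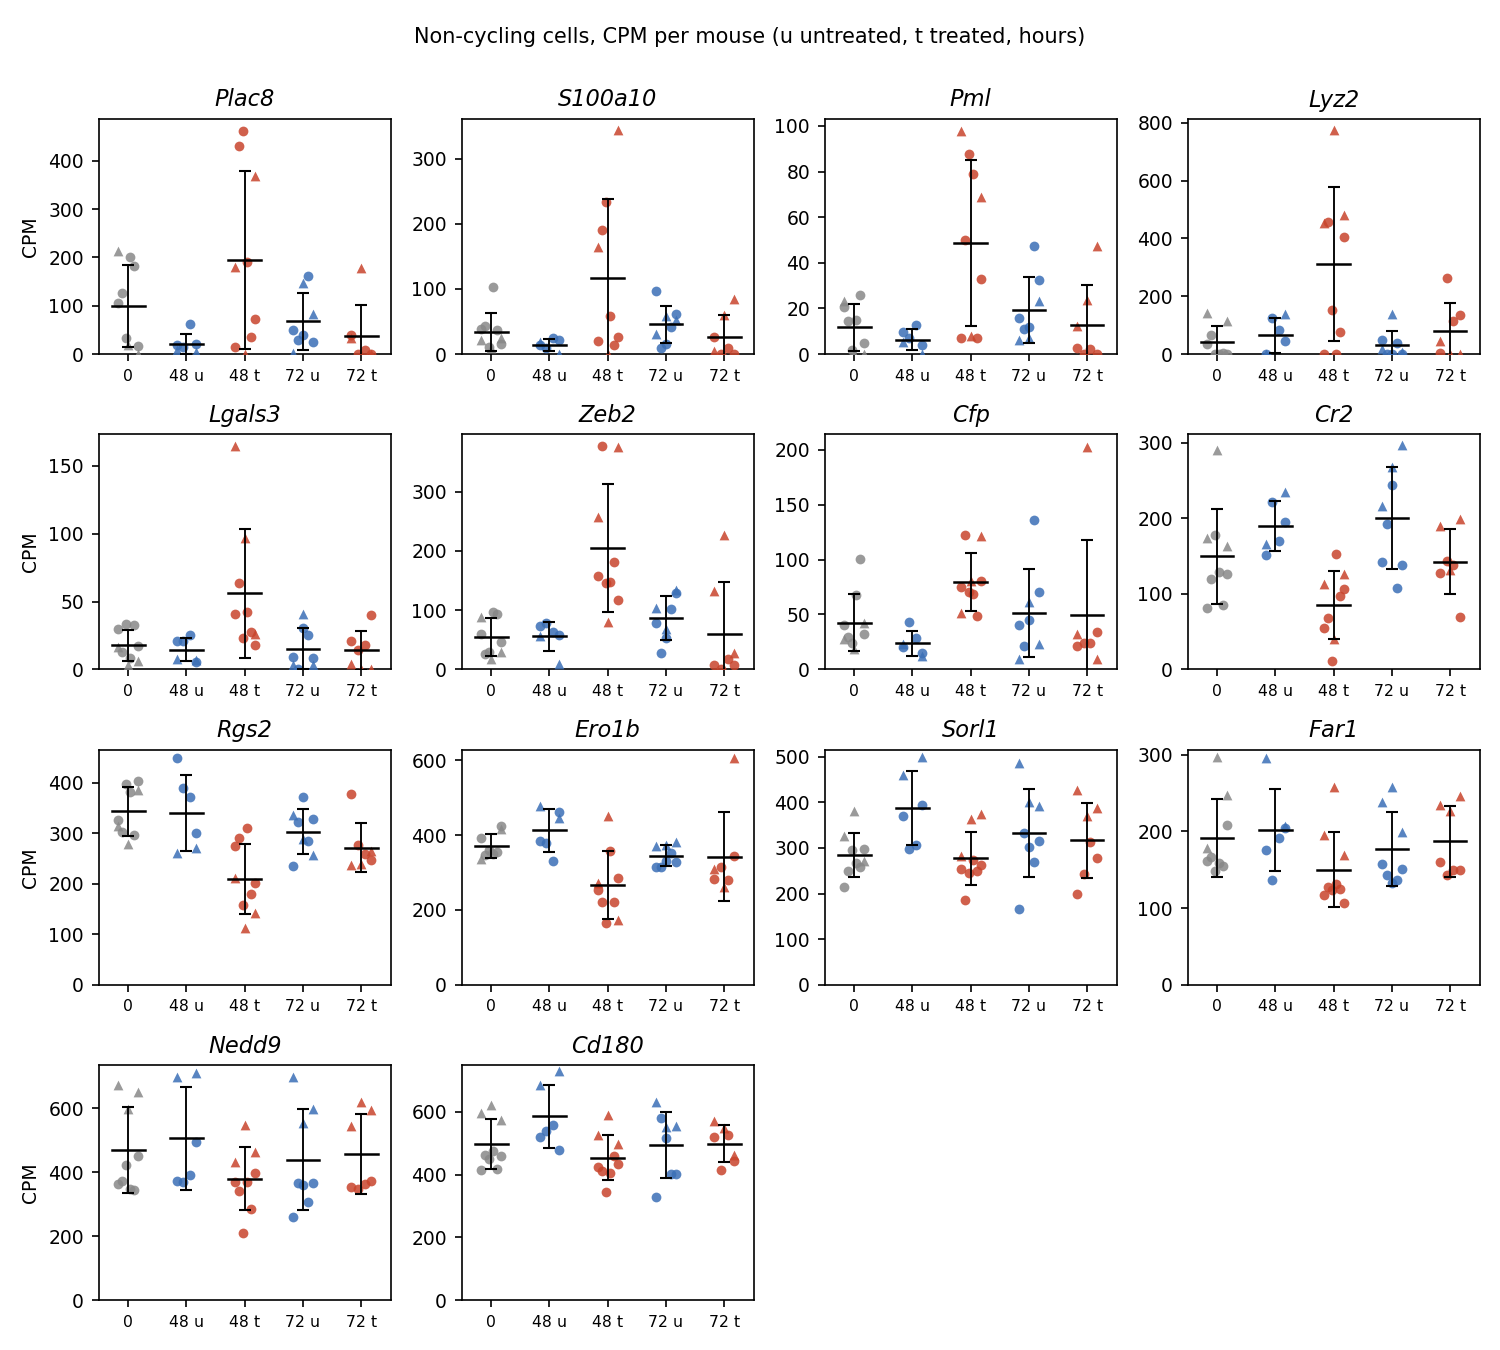
Level of 7 of the 8 largest rises and 7 of the 8 falls in the non-cycling cells of each mouse, in CPM, at 0 h and in untreated (u) and treated (t) mice at 48 and 72 h; circles are pool 1, triangles pool 2, and lines and bars the mean and SD. Zeb2 and Cfp are higher in all treated than in all untreated mice at 48 h, while Plac8, S100a10 and Lyz2 range from 0 to several times the untreated level among treated mice.

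The 8 falls were smaller than the largest rises. Cr2 encodes the complement receptor CD21, which lowers the threshold of the B cell receptor. It ran from 151 to 235 CPM (median 182) in untreated and from 11.7 to 153 CPM (median 97.2) in treated mice, where 8 of 9 treated mice lay below all untreated ones, and it fell by 1.10 on the log2 scale (SE 0.22, edgeR adjusted p = 0.0043). Rgs2, a regulator of G protein signalling, ran from 260 to 448 CPM (median 336) and from 113 to 311 CPM (median 201) and fell by 0.69 on the log2 scale (SE 0.13, edgeR adjusted p = 0.0031). Ero1b, an oxidase of the endoplasmic reticulum, ran from 329 to 477 CPM (median 415) and from 164 to 452 CPM (median 253) and fell by 0.64 on the log2 scale (SE 0.13, edgeR adjusted p = 0.0038). Sorl1, a sorting receptor, fell by 0.49, Far1, a fatty acyl-CoA reductase, by 0.46, Nedd9, an adhesion scaffold, by 0.38, and Cd180, a Toll-like receptor homologue of B cells, by 0.36 (log2, edgeR adjusted p from 0.017 to 0.049), and their groups overlapped. Of the 33 alternative settings run at 48 h, the call was lost in 12 for Sorl1, 23 for Far1, 23 for Nedd9 and 22 for Cd180, with no change of direction.

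The number of calls moved in both directions under other choices, and the cause was not tested. With G1 cells by CellCycleScoring in place of the rule 854 genes passed, 428 higher and 426 lower, and with no filter on low counts 208 passed, 157 higher and 51 lower. With 26 cells drawn from every mouse, 0 of 3461 genes passed edgeR's test (258 at an unadjusted p under 0.05), in pool 2 alone, with 2 untreated and 3 treated mice, 0 of 5848 passed (362 unadjusted), and with cells holding any UMI of further G2-M genes also left out 0 of 4063 passed (255 unadjusted). DESeq2 called 28 genes, 20 of them shared, among which were Cr2, Rgs2, Ero1b and Capg. Plac8 (DESeq2 adjusted p = 0.054), Zeb2 (0.069) and Lyz2 (0.52) were not, and S100a10, Pml, Lgals3 and Rb1 received no adjusted p from DESeq2. The fitted differences in pool 1 and pool 2 were 2.85 and 4.92 for Plac8, 2.43 and 4.34 for S100a10, 2.39 and 4.44 for Pml, 1.47 and 2.94 for Zeb2 and -1.11 and -1.01 for Cr2 (log2), so that none of these was smaller in size in pool 2 except that of Cr2.

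The upstream sequence of the largest rise and of the largest fall is shown with that of Pml, the 1 large rise whose upstream window held a searched motif. Each is the 250 bases before an annotated start (1 of the pair given for Plac8) (RefSeq, GRCm38.p6), read 5′ to 3′ along the gene's strand, which is the minus strand in each case. Capitals mark GTAAACA, a core bound by FoxO factors, read on the opposite strand.
Plac8 (chr5:100572206-100572455): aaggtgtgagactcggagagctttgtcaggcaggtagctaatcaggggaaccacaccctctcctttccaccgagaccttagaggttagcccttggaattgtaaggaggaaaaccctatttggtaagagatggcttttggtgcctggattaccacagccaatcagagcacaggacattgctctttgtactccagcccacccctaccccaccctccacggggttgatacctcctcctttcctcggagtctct
Pml (chr9:58249787-58250036): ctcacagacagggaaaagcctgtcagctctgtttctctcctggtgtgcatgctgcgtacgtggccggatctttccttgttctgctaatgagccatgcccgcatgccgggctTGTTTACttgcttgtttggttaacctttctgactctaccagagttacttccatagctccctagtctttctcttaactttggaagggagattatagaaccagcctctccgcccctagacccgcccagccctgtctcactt
Cr2 (chr1:195176720-195176969): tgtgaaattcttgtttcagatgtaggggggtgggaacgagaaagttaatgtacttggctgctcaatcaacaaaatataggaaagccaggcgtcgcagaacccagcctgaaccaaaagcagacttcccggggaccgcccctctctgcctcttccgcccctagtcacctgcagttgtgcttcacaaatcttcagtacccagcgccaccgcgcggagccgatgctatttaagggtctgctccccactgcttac

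Of the large rises 6 and of the large falls 7 had such a window. Both strands were searched. GTAAACA was found in 1 of the 6 rises and in 3.17% of 32851 windows of all genes, and the E-box CACGTG in Sorl1 among the falls and in 6.02% of all windows. A gene was counted when any of its windows matched, and some had several. The shares over all genes are per window, so the measures are not alike. The core of the interferon-stimulated response element (2.98% of all windows) and an NF-kB site (0.14%) were found in none of these genes. A match describes letters in this window and not binding. In the GRCm39 annotation Plac8 lies at chr5:100701591-100720111, Pml at chr9:58124456-58157169, Cr2 at chr1:194819119-194859091 and Zeb2 at chr2:44873644-45007464, all on the minus strand.

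The share of cells in which a transcript was detected differed widely among the rises. The median depth of a mouse's non-cycling cells was at most 7037 UMIs, so that a cell without a UMI may still have expressed the gene. Plac8 had a UMI in 25 of 785 untreated cells (3.19%) and in 39 of 363 treated cells (10.7%), against 1.43% and 2.37% of the deeper other cells. Lyz2 had a UMI in 1.53% and 5.79% of non-cycling cells and in 0.446% and 0.387% of other cells, and 1 cell held 21.2% of its treated UMIs. Cr2 was found in 36.3% and 22.9% of non-cycling cells and in 37.5% and 27.8% of other cells. Capg was detected in 16.1% and 31.1% of non-cycling cells, Sub1 in 12.0% and 23.7% and Rb1 in 6.37% and 16.8%.

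Cells that held UMIs of 2 or more of the 8 largest rises made a larger part of the non-cycling class after treatment, while their share of all kept cells of a mouse overlapped between the groups. There were 52 such cells among the 785 untreated and 84 among the 363 treated non-cycling cells. As a share of the non-cycling cells of a mouse they made between 1.56% and 9.32% in untreated (mean 6.69% ± 2.75, SD, n = 6) and between 10% and 32.6% in treated mice (mean 22.6% ± 6.13, SD, n = 9). As a share of all kept cells of a mouse they made 1.38% ± 0.582 (SD, n = 6) and 1.42% ± 0.572 (SD, n = 9). Since these cells were defined by the genes that rose, both shares are given as a description with no test. For Plac8 alone the means were 3.17% and 10.3% of non-cycling cells and 0.663% and 0.665% of all kept cells. Other rises differed in the share of all kept cells. It was higher in treated mice for Pml (means 0.349% and 0.642%) and lower for Zeb2 (1.70% and 0.915%) and Cfp (1.49% and 1.005%). The size of the class and the share within it of cells with 2 or more of the 8 largest rises moved together. How much of each rise came with that was not tested.

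**Figure D3:**
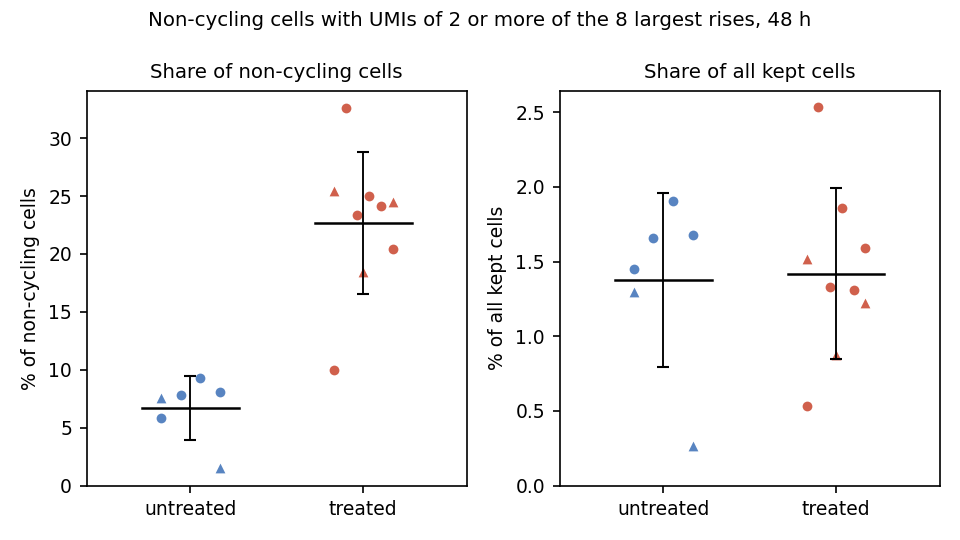
Non-cycling cells with UMIs of at least 2 of the 8 largest rises at 48 h, as % of the non-cycling cells (left) and as % of all kept cells (right) of each mouse; circles are pool 1, triangles pool 2, lines and bars the mean and SD. All treated mice lie above all untreated mice on the left, with means of 22.6% and 6.69%, and the groups overlap on the right, with means of 1.42% and 1.38%.

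Some of these cells had no detected transcript of 3 B cell genes. A UMI of Cd79a, Cd79b or Ms4a1 was present in 97.8% of untreated and 96.6% of treated non-cycling cells with none of the 8 genes, in 69.2% and 58.1% of those with 2, and in 73.1% and 81.1% of those with 3 or more. The median UMIs of the treated cells were 4388, 2178 and 5282 in the same order. The receptor of the transferred cells was called by the names of its V and J genes alone. A host cell that used the same genes would thus be counted with it. By that call it made up a smaller share of these cells, which is given with no test. Of non-cycling cells with 1 productive heavy and 1 productive light chain, 92.9% of untreated and 96.8% of treated cells with none of the 8 genes carried its pair, against 63.6% and 58.3% of those with 2 and 71.4% and 75.8% of those with 3 or more, over 11 to 33 cells in the last 2 classes. When cells with any UMI of the T cell or myeloid marker lists were left out (66 untreated and 59 treated cells, a choice made after seeing the data), edgeR called 14 genes, 13 of them shared. The myeloid list holds Lyz2, itself among the 8 largest rises, so cells were removed in part by a gene that rose. Capg (1.05 higher, edgeR adjusted p = 0.0065), Rb1 (1.40 higher, 0.035) and Cr2 (fell by 0.90 on the log2 scale, 0.035) kept their calls. Plac8 (1.89 higher, edgeR adjusted p = 0.24), S100a10 (2.08 higher, 0.12) and Zeb2 (1.26 higher, 0.14) did not. In contrast, a further fit kept only cells with a productive heavy- and light-chain pair that had the genes of the transferred B1-8hi receptor. These were 300 untreated and 134 treated cells, the latter from 8 mice. In that fit 29 genes were called, 22 of them shared. Plac8 was 3.34 higher (edgeR adjusted p = 0.0036), S100a10 was 3.34 higher (0.0097), and Zeb2 kept its call (edgeR adjusted p = 0.035). With only cells that had an immunoglobulin contig (added after seeing the data), 32 genes were called, 24 of them shared.

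The effect of treatment differed between the non-cycling cells and the other cells of the same mice for 210 of 9703 genes (2.16%, edgeR interaction of class and treatment with mouse as block, adjusted p under 0.05), with the effect higher in non-cycling cells for 156 (1.61%) and lower for 54 (0.557%). With RLE size factors the split was 214 higher and 31 lower. The median difference over all genes was -0.05 on the log2 scale. The number fell to between 125 and 136 when untreated replicate 1, 2, 3 or 6 or treated replicate 7 was left out (125, 133, 130, 131 and 136), and was 107 with DESeq2. Plac8 differed by 2.80 (edgeR adjusted p = 0.00037, DESeq2 adjusted p = 0.26). Over the other cells it stood at 8.16 CPM untreated and 8.88 CPM treated. S100a10 differed by 2.90 and Pml by 2.92 (edgeR adjusted p = 0.00092 and 0.00044). Zeb2 (2.30), Sub1 (2.16) and Capg (2.13) were higher after treatment in non-cycling cells and lower in CPM in other cells, where Capg fell by 0.78 and Zeb2 by 0.57 on the log2 scale. CPM are relative to the total UMIs, which were higher per other cell after treatment. In untreated and treated other cells a UMI was detected in 8.63% and 9.75% for Zeb2, 13.5% and 16.75% for Sub1 and 16.4% and 15.2% for Capg. Klf2, a factor of quiescent and recirculating lymphocytes, differed by 1.70, with levels over the class of 101 and 178 CPM in non-cycling cells and 28.7 and 16.1 CPM in other cells. Its rise in non-cycling cells alone did not pass the threshold (0.91 higher, edgeR adjusted p = 0.11).

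Of the 54 genes with the lower effect in non-cycling cells, 5 were among the 25 tested G1-S and replication genes outside the rule and 0 among the 21 G2-M genes. Only 14 of these 25 and 3 of these 21 were high enough to be tested in the non-cycling cells alone. The rule selects against transcripts of this programme, so both counts are a description only. Further lists held 2 of 18 (cholesterol synthesis), 2 of 14 (chaperonins) or at most 1 member each, against 0.557% of all genes. As the rule removes cells with transcripts of division, the 5 largest by the rule for naming are given as values. Rtel1, a helicase, differed by -1.82, Arhgap11a, a regulator of mitosis, by -1.33, Mcm7, of the replicative helicase, by -1.24, Cdk6, a kinase of G1, by -1.22, and Kif20b, a kinesin, by -1.16 (log2, edgeR adjusted p from 0.020 to 0.049). Rtel1 was too low to be tested in the non-cycling cells alone, with 53 UMIs over the untreated and 9 over the treated cells. In treated non-cycling cells Arhgap11a had 19 UMIs, Mcm7 25, Cdk6 29 and Kif20b 28. Of 21 alternative settings, the call was lost in 16 for Rtel1, 17 for Arhgap11a, 6 for Mcm7, 9 for Cdk6 and 13 for Kif20b, and the difference of Mcm7 ranged from -1.43 to -0.15. Mcm7 went from 192 to 252 CPM over the other cells with treatment, and from 25.2 to 13.2 CPM over the non-cycling cells.

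The falls named above were also called lower in the other cells, where 20.9% of all genes were called lower. Cr2 fell by 1.32 on the log2 scale in other cells, Rgs2 by 0.73, Ero1b by 0.67, Sorl1 by 0.41, Far1 by 0.21, Nedd9 by 0.42 and Cd180 by 0.22. None of these differed between classes by the interaction test (edgeR adjusted p from 0.28 to 0.96). In the same order the differences were 0.12, -0.03, -0.06, -0.16, -0.32, -0.05 and -0.23.

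**Figure D4:**
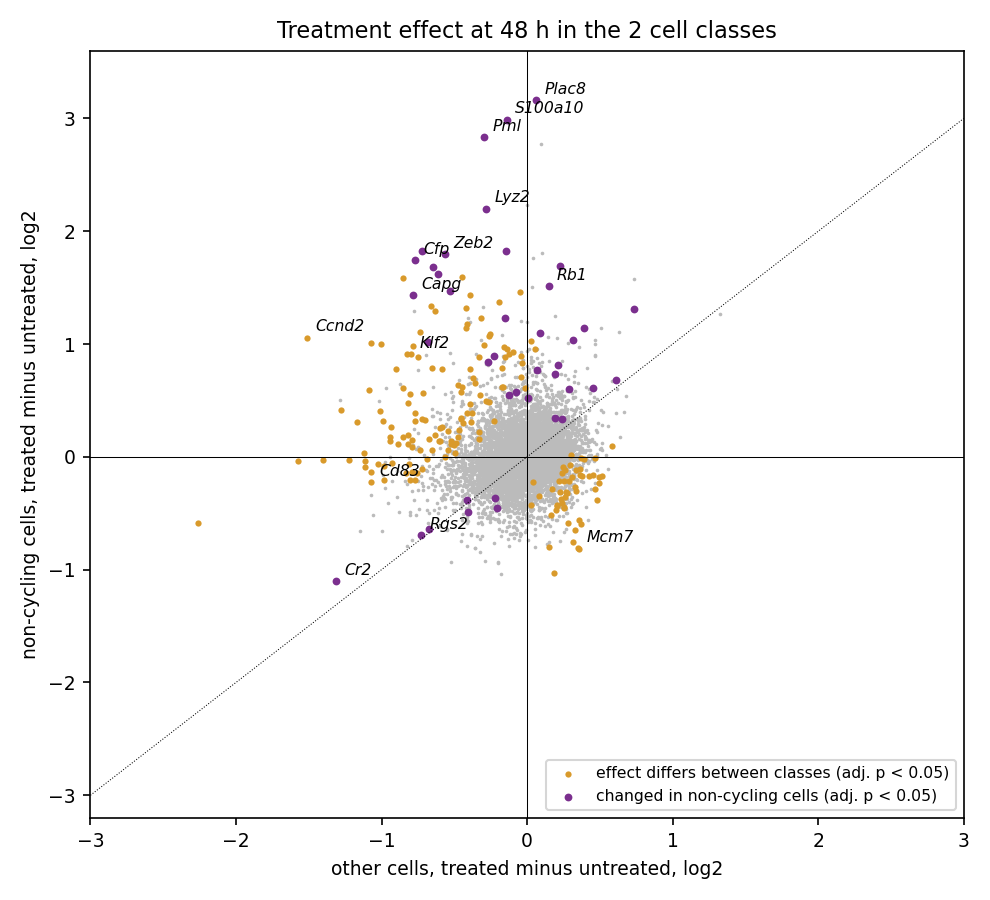
Treatment effect at 48 h in non-cycling cells (vertical) against other cells (horizontal) for each gene tested in both, as log2 of treated over untreated. Purple points changed in non-cycling cells and orange points are further genes whose effect differed between the classes; the dotted line marks equal effects. Cr2 and Rgs2 lie near that line, and Plac8, S100a10 and Pml lie near 0 on the horizontal axis and between 2.83 and 3.16 on the vertical axis.

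Counts of called members cannot be compared between the cell classes directly, since 0.637% of all genes were called in non-cycling cells, so that 0 called members of a list is the background there, and the lists are described mainly by their medians. In the other cells 4109 of 10105 genes (40.7%) were called, 1996 higher (19.8%) and 2113 lower (20.9%). These sums held more cells and UMIs. With as many cells and UMIs as the non-cycling cells of each mouse (added after seeing the data), other cells gave 401 of 6537 genes (6.13%), 204 higher (3.12%) and 197 lower (3.01%), still more than the 42 in non-cycling cells.

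MHC class II genes present antigen to T cells. In other cells 10 of 10 fell (9 of 10 at matched size, median -0.50), and in non-cycling cells 0 of 10 passed, with a median of -0.07. LZ activation and NF-kB genes had medians of -0.62 in other cells (20 of 24 lower) and -0.38 at matched size (6 of 21 lower), against -0.08 in non-cycling cells (0 of 22). Among them Cd83, the LZ surface marker, went from 280 to 138 CPM over other cells and from 636 to 523 CPM over non-cycling cells, and the effects differed by 0.76 (edgeR adjusted p = 0.00012). B cell receptor signalling genes had medians of -0.25 in other cells (15 of 17 lower) and -0.28 at matched size (8 lower), and of -0.13 in non-cycling cells, where Cr2 was the 1 member called. Cytokine receptor genes had medians of -0.39, -0.38 and 0.07 in the same order.

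Growth and replication lists went the other way in other cells. G1-S and replication genes outside the rule were higher for 24 of 25 in other cells (median 0.36) and for 9 of 24 at matched size (median 0.38), while in non-cycling cells 0 of 14 passed (median -0.02). The rule selects against transcripts of this programme. Proteasome genes had medians of 0.24, 0.18 and 0.17 in other cells, other cells at matched size and non-cycling cells, with 14, 2 and 0 of 14 higher. Glycolysis (0.29, 0.26 and 0.12), chaperonins and heat shock proteins (0.33, 0.27 and 0.10), ribosome biogenesis (0.20, 0.29 and 0.07) and oxidative phosphorylation (0.22, 0.19 and -0.01) gave the same order except in ribosome biogenesis, where the matched cells had the highest median. None of these lists had a member called in non-cycling cells.

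The lists of plasma cell differentiation and memory B cell precursors had medians of 0.75 (7 tested members, 0 called) and 0.39 (8 tested members, Zeb2 called) in non-cycling cells, against 0.01 and -0.65 in other cells. The members that could be tested were few. Of the quiescence and FoxO targets 16 were tested, of which 1 was called, with a median of -0.03. Zone positioning receptors had a median of -0.08 over 12 tested, of which Ccr6 was called, and Cxcr4, the DZ homing receptor, stood at medians of 121.5 and 122.4 CPM in untreated and treated mice. Among 3 tested G2-M genes outside the rule, Ube2c rose by 1.14 (edgeR adjusted p = 0.024), a description only, since it is transcribed together with the genes of the rule. Other lists with no member called and a median between -0.15 and 0.13 included those of DZ genes, GC transcription factors, MHC class I, interferon response, Bcl-2 family, cholesterol synthesis, amino acid uptake and nucleotide synthesis.

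**Figure D5:**
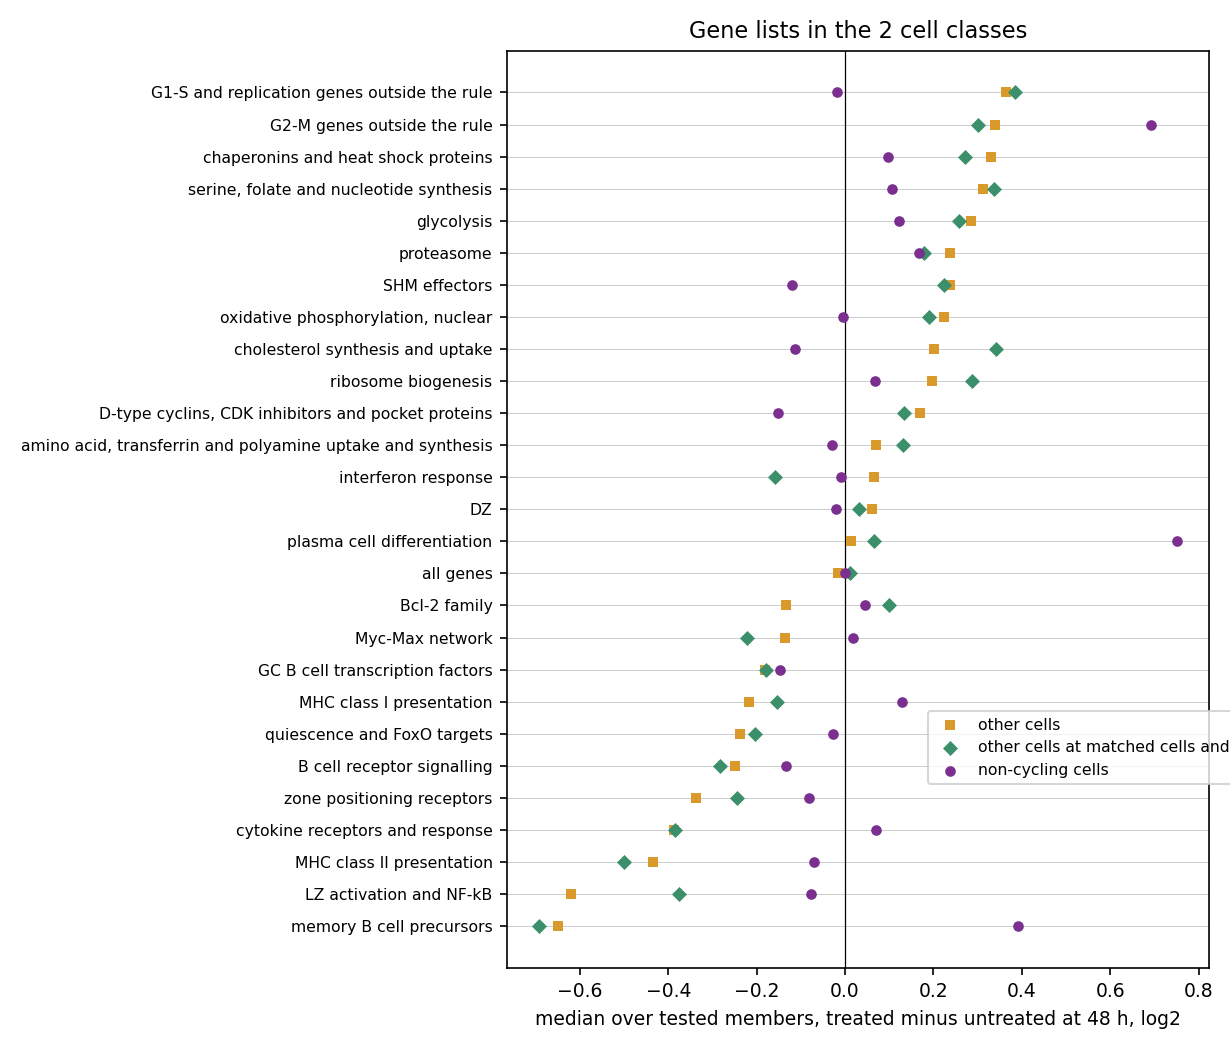
Median log2 fold change of treated over untreated mice at 48 h over the tested members of each gene list, in other cells (squares), other cells at matched cells and UMIs (diamonds) and non-cycling cells (circles). For MHC class II the medians are -0.44, -0.50 and -0.07, and for G1-S and replication genes 0.36, 0.38 and -0.02; list sizes differ and lists of few tested members, such as the 3 G2-M genes, rest on few values.

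Somatic hypermutation (SHM) effectors repair or copy past the lesions that the mutator makes. In non-cycling cells 0 of 6 tested passed, with a median of -0.12, against 6 of 9 higher in other cells (median 0.24) and 1 of 9 at matched size (median 0.22). The shares of all genes called higher were 0.515%, 19.8% and 3.12%, so 0 of 6 is at the background. Neil1, a glycosylase, ran from 299 to 436 CPM (median 377) in untreated and from 116 to 403 CPM (median 361) in treated mice, and its effect was lower than in other cells by 0.53 on the log2 scale (edgeR interaction adjusted p = 0.028), a call lost in 13 of 21 alternative settings (highest adjusted p = 0.163). Hmces, which shields abasic sites, had medians of 296 and 331 CPM. Msh6, of mismatch repair, had medians of 40.1 and 31.7 CPM, and Polh, the error-prone polymerase, of 31.4 and 26.4 CPM, and Apex1 and Apex2, the abasic site endonucleases, of 52.9 and 54.4 and of 27.2 and 20.6 CPM. All these groups overlapped.

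In the Myc-Max network 0 of 6 tested genes passed in non-cycling cells (median 0.02). Myc, the growth regulator induced in selected LZ cells, ran from 7.12 to 47.1 CPM (median 18.3) and from 5.15 to 70.2 CPM (median 27.4). Mxd4, a Max partner of resting cells, had medians of 199 and 171 CPM in untreated and treated mice. Its effect in other cells was a fall of 0.83 on the log2 scale, a difference between classes of 0.61 (edgeR adjusted p = 0.0082). Max, Mga, Mlx and Mlxip differed by between -0.23 and 0.40 and did not pass.

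Among D-type cyclins, CDK inhibitors and pocket proteins Rb1 was the 1 of 10 tested members that passed. Ccnd2, a D-type cyclin of activated and resting B cells, ran from 7.12 to 51.6 CPM (median 19.0) and from 6.85 to 95.1 CPM (median 51.5), 1.06 higher in treated mice without passing (edgeR adjusted p = 0.32). In other cells it fell by 1.51 on the log2 scale, so that the effects differed by 2.50 (edgeR adjusted p = 6.26e-05). Ccnd3, the D-type cyclin that drives DZ division, had medians of 336 and 285 CPM. Cdkn1b, an inhibitor of CDK2, had medians of 22.5 and 27.8 CPM and was 0.53 higher without passing (edgeR adjusted p = 0.52). Ly75, the receptor that anti-DEC-OVA targets, ran from 32.4 to 120 CPM (median 51.0) and from 58.9 to 146 CPM (median 94.9), 0.73 higher in treated mice (edgeR adjusted p = 0.13).

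At 72 h, when treated and untreated mice were compared again, 85 of 6597 genes (1.29%) were called in non-cycling cells, with 29 higher (0.44%) and 56 lower (0.849%). The split moved to 43 higher and 56 lower with RLE size factors and to 58 and 50 with DESeq2. DESeq2 also differs in its test and in the number of genes tested (4295). The effect at 48 h differed from that at 72 h for 119 genes (1.8%), higher at 48 h for 100 (1.52%) and lower for 19 (0.288%), and each time had its own controls. Plac8, S100a10 and Pml were among the 5 largest by the rule, with differences of 4.66, 4.47 and 4.42 (log2, edgeR adjusted p = 0.0037, 0.0017 and 0.0014). Under 4 alternative fits the difference of Plac8 did not pass in 1, and those of S100a10 and Pml passed in all 4. Their levels at 72 h had medians of 45.3, 46.6 and 13.8 CPM in untreated and 8.90, 8.90 and 2.66 CPM in treated mice, below the untreated values where at 48 h they lay above. The 72 h differences in pool 1 and pool 2 were -2.09 and -0.49 for Plac8, -2.13 and -0.37 for S100a10 and -3.83 and 0.77 for Pml (log2). That of Pml thus changed direction in pool 2. None of the 3 passed at 72 h itself in the main fit, and each passed as lower in 1 of 4 alternative fits. Capg, 1.44 higher at 48 h, fell by 1.16 on the log2 scale at 72 h (edgeR adjusted p = 0.045), and Klf2 fell by 1.62 (0.0093). The 72 h difference of Capg was -1.71 in pool 1 and 0.14 in pool 2, so that its fall was not seen in pool 2. That of Klf2 was -1.70 and -1.04.

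Slpi, a secreted protease inhibitor, and Fkbp11, a chaperone of secretory cells, had the largest differences, at 5.66 (edgeR adjusted p = 0.018) and 5.37 (0.030), and did not pass in 1 and 2 of 4 alternative fits (highest adjusted p = 0.113 and 0.118). Slpi ran from 21.04 to 1404 CPM (median 50) in untreated and from 5.27 to 11610 CPM (median 86.1) in treated mice at 48 h, and 1 cell held 45.2% of its treated UMIs. Fkbp11 had a UMI in 6 untreated and 12 treated non-cycling cells. The UMIs behind these values came from few cells.

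In the list of cholesterol synthesis, 3 of 13 tested genes had a lower effect at 48 h than at 72 h (0.288% of all genes), and the other 10 did not pass. Cyp51, a sterol demethylase, differed by -1.43 (edgeR adjusted p = 0.0016), Hmgcs1, which makes the precursor of mevalonate, by -1.20 (0.013), and Fdps, a farnesyl diphosphate synthase, by -1.12 (0.015). Cyp51 had medians of 76.6 and 68.5 CPM in untreated and treated mice at 48 h and of 46.3 and 104 CPM at 72 h, and it rose at 72 h by 1.14 (log2, edgeR adjusted p = 0.00054). Over the 13 tested members of the list the median was -0.11 at 48 h and 0.77 at 72 h, where 3 of 13 were higher (0.44% of all genes). The difference of Fdps did not pass in 1 of 4 alternative fits. 1810013L24Rik differed by -0.99 (edgeR adjusted p = 0.045) and did not pass in 2 of 4.

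The immunoglobulin sequence was a readout that the rule did not use. Mutations were counted over 689 bases of the paired heavy and light chain of the B1-8hi receptor, in mice with at least 10 such non-cycling cells, relative to the 0 h cells of the same pool. Untreated non-cycling cells stood at 0.304 ± 0.693 mutations per cell (SD, n = 6) and treated ones at -0.400 ± 1.08 (SD, n = 8). The difference of -0.704 did not pass a two-sided exact permutation test within pools (p = 0.265). Counting identical pairs of a mouse a single time gave -0.149 (exact permutation test p = 0.633, 6 treated and 6 untreated mice). Treated replicates 7 and 9 then fell under the limit of 10 and left the test. The treated mice in it were all of pool 1, so the 2 differences do not cover the same mice. With every cell counted the difference was -0.0264 in pool 1 alone and -2.49 in pool 2 alone. In pool 2 treated replicate 7 had 0.7 mutations per cell over 10 cells, against 2.80 to 4.59 in the other treated mice in that test.

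Mutations per cell were also compared between non-cycling and other cells of the same mouse. In untreated mice the difference was 0.906 ± 0.819 per cell (SD, n = 6), above 0 in 6 of 6 mice (two-sided exact sign-flip permutation test p = 0.0312, the smallest that 6 mice allow). Counting identical pairs a single time gave 0.395, above 0 in 5 of 6 mice (exact sign-flip permutation test p = 0.0625). Untreated replicate 5 had a difference of 2.49, and without it (added after seeing the data) the mean was 0.589, above 0 in 5 of 5 mice, where 5 mice allow no p under 0.0625. In treated mice it was 0.979 ± 0.879 per cell (SD, n = 8), above 0 in 7 of 8 mice (exact sign-flip permutation test p = 0.0391), and treated replicate 7 was the exception at -0.928. Counting identical pairs a single time gave 0.754, above 0 in 6 of 6 mice (exact permutation test p = 0.0312, the smallest that 6 mice allow). These were the treated mice of pool 1, since replicates 7 and 9 then had too few non-cycling cells. With every cell counted, leaving out any treated mouse other than replicate 7 gave an exact permutation p of 0.0625 or 0.0781. In pool 1 the difference was 1.31 in treated (6 of 6 mice) and 0.515 in untreated mice (4 of 4), and in pool 2 it was -0.0289 over 2 treated and 1.69 over 2 untreated mice. Means per cell were 3.28 against 2.30 in treated and 3.96 against 3.05 in untreated mice.

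The share of cells that carried the gene pair of the transferred receptor overlapped between the groups. Of non-cycling cells with 1 productive heavy and 1 productive light chain, 88.8% ± 8.52 (SD, n = 9) in treated and 89.3% ± 8.03 (SD, n = 6) in untreated mice had it (difference -0.541 percentage points, exact permutation p = 0.888, a test added after seeing the data), against 97.0% and 95.2% of other cells. No contig was found for 45.0% ± 16.6 (SD, n = 9) and 45.4% ± 17.9 (SD, n = 6) of non-cycling cells and for 17.7% and 26% of other cells. In pool 2 it was 64.9% in treated and 68.1% in untreated mice, and in pool 1 35.04% and 34%.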

How the data were processed

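For each pool the authors deposited a matrix of raw UMI counts with genes and hashtags in rows and cells in columns, from CellRanger 8.0.1 per the file headers (the submitters' processing notes name Cell Ranger 6.0.1 and Seurat 5.1.0, and the mm39 build), and the immunoglobulin contigs that passed CellRanger's filter, with their UMI counts. Days 7, 9 and 10 of the list of mice were read as 0, 48 and 72 h after treatment.

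Hashtags were called with HTODemux (Seurat 5.3.0, quantile 0.99), and a cell was assigned when its 2 hashtags were those of a listed mouse (13976 of 16424 cells in pool 1 and 13187 of 18233 in pool 2, where 1537 cells had 2 hashtags of no listed mouse). No search was made for doublets within a mouse. A minimum of 200 genes and a limit of 10% mitochondrial UMIs left 13625 and 10073 cells, and the filter on mitochondrial UMIs removed 350 and 3114. Each mouse's non-cycling cells gave 1 sum of UMI counts per gene. The sums were analysed with edgeR 4.0.16 under R 4.3.3, by its quasi-likelihood test after TMM scaling and filterByExpr (Benjamini-Hochberg adjustment, threshold 0.05), with all 5 conditions in 1 fit, and CPM follow TMM scaling except for marker sums. DESeq2 1.42.0 was an alternative, and the scripts were tested on simulated data. Exact tests were run in Python 3.11.15 (numpy 2.4.6, pandas 2.3.3). The mouse was the replicate throughout.

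Mutations were base differences from the most frequent 0 h sequence, in cells with exactly 1 productive heavy and 1 light chain of reference length (1308 non-cycling cells). The B1-8hi pair was called by the names of its V and J genes and not by its sequence. Genes were named by a rule: the 8 largest rises and falls at 48 h, the 5 largest differences in each direction between classes and between times (average log2 CPM above 4, same direction in both pools), up to 4 called members of each list, all tested members of 3 lists, and a few fixed genes. The members and lists were chosen with earlier results of these data known. Transcripts of the heavy-chain locus and some other genes that the rule names are not reported here, though counts of genes include them.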

Additional observations from a re-analysis of the deposited data

Results flagged for a closer look

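Among 46 groups of mice examined for a mouse far from the others (Dixon's test), 6 had one, and chance alone gives about 1 in 20 groups. Plac8 stood at 61.2 CPM in the highest untreated mouse at 48 h, with the next at 21.04 CPM. Zeb2 stood at 9.5 CPM in the lowest untreated mouse, with the next at 56.2 CPM. Sub1 stood at 270.5 CPM in the highest untreated mouse, with the next at 98.99 CPM. Ccr6 stood at 158.5 CPM in the highest treated mouse, with the next at 87.6 CPM. Mutations per non-cycling cell were 0.7 in the lowest treated mouse, with the next at 2.8. The B1-8hi pair was found in 73.9% of the non-cycling cells with a heavy and a light chain of the lowest untreated mouse, with the next at 87.1%.

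The treatment effect at 48 h differed between non-cycling and other cells for 210 genes by the interaction test. The differences on the log2 scale were 2.80 for Plac8, 2.30 for Zeb2, 2.16 for Sub1, 2.13 for Capg and 1.70 for Klf2. They were -1.82 for Rtel1, -1.33 for Arhgap11a, -1.24 for Mcm7, -1.22 for Cdk6 and -1.16 for Kif20b. Rtel1 was too low to be tested in the non-cycling cells alone.

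The effect in non-cycling cells differed between 48 h and 72 h for 119 genes. The differences on the log2 scale were 5.66 for Slpi, 5.37 for Fkbp11, 4.66 for Plac8, 4.47 for S100a10 and 4.42 for Pml. They were -1.43 for Cyp51, -1.20 for Hmgcs1, -1.12 for Fdps and -0.99 for 1810013L24Rik.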

How the results depend on the processing

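The 42 genes called at 48 h became 208 with no filter on low counts, 11 without the pool term, 18 with cells thinned to the same UMIs, 854 when G1 cells by CellCycleScoring replaced the rule, and 14 without cells holding T cell or myeloid UMIs. They became 0 in pool 2 alone, with the same number of cells per mouse, and without any UMI of the 8 or the other G2-M genes. Leaving out each mouse gave 26 to 57. At 72 h the 85 became 258 with no filter and 12 without the pool term, and the 119 differing between times became 293 and 31. The 210 differing between classes became 107 with DESeq2, 127 in pool 1, 54 in pool 2 and 123 with thinned cells, and ranged from 125 to 266 when each mouse was left out. The 4109 of the other cells became 401 at matched cells and UMIs.

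In untreated mice the mutation difference between classes was 0.395 with identical pairs of sequences collapsed, 0.515 in pool 1 and 1.69 in pool 2. The collapsed difference did not pass (exact permutation p = 0.0625) and was below 0 in 1 of 6 mice. The pools could not pass, since 4 mice allow no p under 0.125 and 2 mice none under 0.5. In treated mice it was -0.0289 in pool 2. Leaving out each mouse gave 0.589 to 1.04 in untreated and 0.844 to 1.25 in treated mice. UMIs per cell by the mean gave a log2 difference of 0.217. With G1 cells by scoring the 48 h values of Mcm7 (0.41), Fdps (0.41), Msh6 (0.32) and Mga (-0.25) changed sign. Genes called in neither setting were not counted as reversed. The cause of these changes was not tested. Treated mice held few non-cycling cells (29 to 55 each). With 26 cells from every mouse 3461 genes were tested, against 6597 in the main fit. Cell classes were compared within each mouse, while treated and untreated mice were compared unpaired. No paired analysis was possible because the treated and untreated mice share no animal or numbered batch other than the pool.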
